A study of Homo sapiens with 6 samples.

Results

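Cytokine receptor chains were examined in BT-549 cells silenced for PBRM1. The genes are IL2RA and 9 further chains, IL15RA, IL4R, IL13RA1, IL7R, IL6R, IL6ST, LIFR, OSMR and IL1R1, found by symbol among 37887 rows of gene counts. All 10 were among the 15450 genes with enough counts to be tested. IL2RA was selected on its higher counts in silenced than in control libraries, and the other chains were chosen by their family with their counts in the same contrast already known. Their own values in that contrast are therefore given as a description, without a test.

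BT-549 is an established triple-negative breast cancer (TNBC) cell line, and PBRM1 encodes a protein with several bromodomains that helps PBAF, a nucleosome remodeler, to bind acetylated histones. RNA-seq was performed on 3 libraries of control cells (shCTL) and 3 libraries of silenced cells (shPBRM1), made from polyadenylated RNA of bulk cultures. The shCTL titles name a control shRNA and their treatment is 0.1% DMSO as vehicle. The shPBRM1 cells received 500 ng/ml doxycycline (DOX), which switches on a tet-controlled PBRM1 shRNA, and the design text describes a single line carrying that vector under either treatment. What DOX does by itself and what the loss of PBRM1 does cannot be told apart here. If the shCTL libraries came from another line, as their titles could mean, a difference between lines could not be told apart either. The replicates are cultures of 1 cell line grown in triplicate, and p-values measure only the spread between these libraries. Total counts were 36429395, 47996676 and 49784336 in shCTL and 60221790, 40035400 and 65096297 in shPBRM1.

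PBRM1 itself had 5870, 7619 and 8118 counts in shCTL and 2598, 1591 and 2657 in shPBRM1. In CPM, library-scaled counts normalized by TMM, this was 158 ± 2.30 against 41.9 ± 1.22 (mean ± SD, n = 3 in each group, as for all means below), which is 26.5% of the control. The log2 fold change was -1.91 ± 0.03 (SE), with an adjusted p of 9.98e-23 by edgeR's quasi-likelihood test. Of the receptor genes that define the TNBC label, ESR1 and PGR were near 0 and ERBB2 was not. ESR1 had 0 counts in 5 of the 6 libraries and 2 counts in the other, PGR had at most 12 counts, and ERBB2 was at 51.3 CPM in shCTL and 50.0 CPM in shPBRM1. The mesenchymal genes SPARC, VIM and CDH2 had high counts in both groups, with SPARC at 3893 CPM in shCTL and 3021 CPM in shPBRM1, and EPCAM had at most 8 counts in any library. The mesenchymal markers split, since VIM (0.31 ± 0.03, adjusted p = 1.51e-07) and CDH2 (0.54 ± 0.04, adjusted p = 4.65e-11) rose while FN1 (-1.33 ± 0.05, adjusted p = 1.05e-17), ZEB1 (-0.55 ± 0.04, adjusted p = 8.82e-12) and SPARC (-0.37 ± 0.05, adjusted p = 7.1e-10) fell, all by edgeR. The keratins KRT8 (log2 fold change 3.08 ± 0.11, adjusted p = 1.04e-18, edgeR) and KRT18 (3.51 ± 0.09, adjusted p = 5.66e-21, edgeR) rose with the silencing, whereas KRT19 had 6, 10 and 24 counts in shCTL and 0 in each shPBRM1 library. The epithelial cadherin CDH1 fell (186, 226 and 271 counts against 110, 58 and 77, -1.73 ± 0.18, adjusted p = 9.58e-10, edgeR). Whether these marker genes are linked to the receptor differences was not tested.

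Cytokine receptors bind a secreted ligand and pass the signal through the JAK kinases attached to their tails, which phosphorylate STAT factors. Most work as pairs or triplets, with a private chain that sets the ligand and a shared chain that signals for a whole family: the common gamma chain IL2RG for IL-2, IL-4, IL-7, IL-15 and IL-21, and gp130, encoded by IL6ST, for IL-6, LIF and oncostatin M. IL1R1 belongs to a separate family that signals through Toll/IL-1 receptor domains instead of JAK kinases. IL2RA, also known as CD25, is best known from activated and regulatory T cells, where it raises the affinity of the IL-2 receptor and does not signal by itself.

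Of the 10 chains, 5 were higher in every shPBRM1 library than in any shCTL library and 5 were lower in every one. Groups that do not overlap were common in this comparison, at 68.3% of all tested genes (33.3% higher and 35.0% lower), and 64.7% passed an adjusted p of 0.05. Past a fold change of 2 as well, which was met by 12.6% of the tested genes (2.87% higher and 9.68% lower), were IL2RA on the higher side and IL7R and IL15RA on the lower side. Since this contrast entered the choice of the chains, nothing is read from these counts. The median log2 fold change over the 10 chains was -0.14, against -0.01 over all tested genes. IL15RA, with a 3.08-fold difference, was the nearest to the 2-fold limit among the chains past it, and IL6R, with a 1.78-fold difference, was the nearest among those short of it. Fewer cells making a transcript and less of it in each cell cannot be told apart in bulk RNA.

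**Figure D1:**
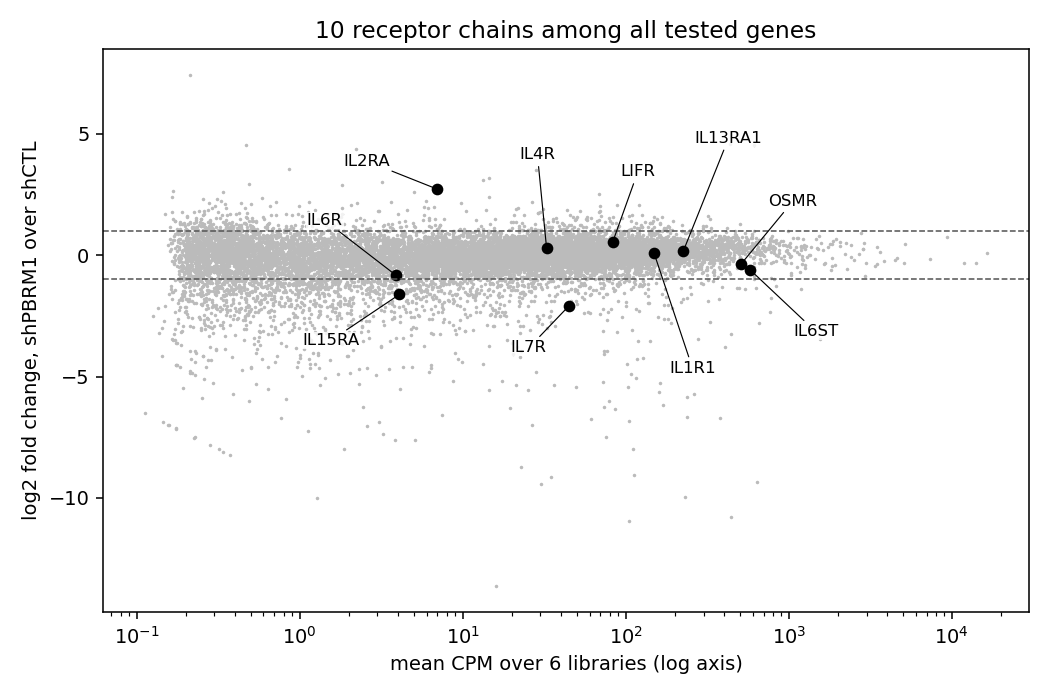
Log2 fold change of shPBRM1 over shCTL (y axis) against the mean level in CPM over the 6 libraries (x axis, log scale) for the 15450 tested genes, as grey points, with the 10 receptor chains in black and dashed lines at a 2-fold change. IL2RA, at 2.72, ranks 13 from the highest of all tested genes, IL7R (-2.08) and IL15RA (-1.62) lie below the lower line, and the other 7 chains lie between the lines.

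IL2RA was the chain with the largest difference. It had 71, 85 and 94 counts in shCTL and 746, 452 and 777 in shPBRM1, or 1.90, 1.75 and 1.86 CPM against 12.4, 11.6 and 12.2 CPM. The groups were far apart and tight, with the lowest silenced library well above the highest control. The means were 1.84 ± 0.08 and 12.1 ± 0.42 CPM, a log2 fold change of 2.72 ± 0.05 and a 6.58-fold higher level. Within the same replicate number the log2 ratios were 2.68, 2.7 and 2.68. By log2 fold change it ranked 13 from the highest of the 15450 tested genes. Per kilobase of exon, IL2RA moved from percentile 19.7 of the tested genes in shCTL to percentile 48.5 in shPBRM1.

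The gene lies on the minus strand of chromosome 10 (GRCh38, GENCODE v29, chr10:6010689-6062370), with IL15RA next to it on the same strand (chr10:5943639-5978187). The 2 genes are 32.5 kb apart with no tested gene between them, and their differences were opposite in sign. Of genes annotated as antisense, AL137186.1 overlaps IL2RA on the opposite strand and AL137186.2 overlaps IL15RA on the same strand. Neither has counts listed, and whether their reads entered the counts of IL2RA or IL15RA was not tested. The RefSeq promoters of IL2RA and IL15RA (GRCh38.p14, 250 bases before to 50 after the start, read along the minus strand) are shown because these adjacent genes had differences of opposite sign: chr10:6062318-6062617 for IL2RA and chr10:5977997-5978296 for IL15RA. The capitals mark matches to an NF-kB consensus in IL2RA, from position -211 in 2 overlapping frames, and to the STAT motif TTCNNNGAA in IL15RA, at position -127.
IL2RA: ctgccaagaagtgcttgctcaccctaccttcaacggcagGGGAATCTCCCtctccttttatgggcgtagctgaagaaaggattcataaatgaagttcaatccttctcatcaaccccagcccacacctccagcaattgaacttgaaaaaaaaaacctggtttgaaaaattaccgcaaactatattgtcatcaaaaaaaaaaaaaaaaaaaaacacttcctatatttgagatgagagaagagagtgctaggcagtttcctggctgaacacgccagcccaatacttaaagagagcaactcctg
IL15RA: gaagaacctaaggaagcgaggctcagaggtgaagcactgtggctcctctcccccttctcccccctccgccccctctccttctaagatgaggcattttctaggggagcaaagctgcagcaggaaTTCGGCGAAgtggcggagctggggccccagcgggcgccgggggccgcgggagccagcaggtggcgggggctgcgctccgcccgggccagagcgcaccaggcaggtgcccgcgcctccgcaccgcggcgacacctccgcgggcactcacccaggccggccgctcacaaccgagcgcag
The IL2RA window is 41.7% G and C with 4 CpG, and the IL15RA window is 71.0% with 27 CpG. The median over the promoters of 11173 tested genes was 65% with 26 CpG. Searched on both strands, the NF-kB consensus was present in 10.8% of all 27305 RefSeq promoters of this length and the STAT motif in 7.88%, and among the 11173 tested genes in 13.1% and 6.49%. Of the other chains, IL4R (log2 fold change 0.28) and IL6ST (-0.62) also had a match to the NF-kB consensus, and LIFR (0.53) to the STAT motif. A match describes the letters only.

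IL15RA, the private chain that presents IL-15, had 254, 303 and 281 counts in shCTL and 135, 65 and 129 in shPBRM1. The levels were 6.20 ± 0.62 and 1.98 ± 0.29 CPM, without overlap, and the log2 fold change was -1.62 ± 0.15. The ratio of IL2RA to IL15RA, both per kilobase of exon, was 0.257, 0.256 and 0.307 in shCTL and 5.07, 6.37 and 5.53 in shPBRM1. With the length of the longest coding transcript in place of all exons, a choice made after seeing the data, the ratio was 0.163, 0.163 and 0.195 against 3.22, 4.05 and 3.51. IL15RA was thus the more abundant of these neighbours in each control library and IL2RA in each silenced one.

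The other chains that IL-2 and IL-15 need were scarce or missing. IL2RB, the signalling beta chain of both receptors, had 32, 61 and 38 counts in shCTL and 4, 6 and 4 in shPBRM1, and fell by 3.42 ± 0.37 on the log2 scale (adjusted p = 3.36e-07, edgeR). IL2RG, the common gamma chain, had 0 counts in each of the 6 libraries, which allows at most 0.0471 to 0.0804 CPM by a floor of 3 counts per library, counting error only. JAK3, the kinase that docks on the common gamma chain, fell by 2.04 ± 0.25 (56, 85 and 71 counts against 30, 14 and 17, adjusted p = 8.27e-07, edgeR). The IL2RA transcript per kilobase of exon was 2.64, 1.65 and 2.94 times that of IL2RB in shCTL and 221, 89.3 and 230 times in shPBRM1 (the latter on 4 to 6 IL2RB counts a library). The gene for IL-2 had no count in any library.

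Since IL2RA, IL2RB and IL7R are familiar from lymphocytes, markers of lymphoid and myeloid cells were read in the same libraries. Of 29 markers, 9 had no count in any library (CD3D, CD3E, CD3G, CD2, CD8B, ZAP70, MS4A1, GNLY and FCGR3A) and 15, those 9 included, had at most 3 counts in every library. The summed level was 186, 183 and 191 CPM in shCTL and 204, 207 and 199 CPM in shPBRM1. NCAM1, which is also expressed outside the immune system, was the most abundant, at 181 CPM in shCTL and 199 CPM in shPBRM1. Without NCAM1 the sum was 5.57, 4.92 and 5.67 CPM against 4.56, 5.24 and 4.47 CPM, with overlapping groups. The pan-leukocyte gene PTPRC (CD45) fell (26, 40 and 44 counts against 12, 4 and 6, log2 fold change -2.55 ± 0.28, adjusted p = 6.35e-06, edgeR). FOXP3, which marks regulatory T cells with high IL2RA, had between 4 and 16 counts in every library (log2 fold change -0.02 ± 0.53, adjusted p = 0.976, edgeR). CD14 was past both limits at 1.0 ± 0.28 (9, 23 and 14 counts against 36, 29 and 44, adjusted p = 0.016, edgeR), and it was the marker whose call was lost with DESeq2 (1.02), with library size only (0.96), without shCTL replicate 1 (0.84) or 3 (0.87) and without shPBRM1 replicate 2 (0.95) or 3 (0.99). In all, 7 of the 29 were tested, of which 2 rose (NCAM1 and CD14), 1 fell and 4 did not pass, against 31.5% of all tested genes that rose and 33.2% that fell. Past 2-fold were 2 of the 7 (28.6%, against 12.6% of all tested genes), and without shPBRM1 replicate 1 a second marker was called lower.

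**Figure D2:**
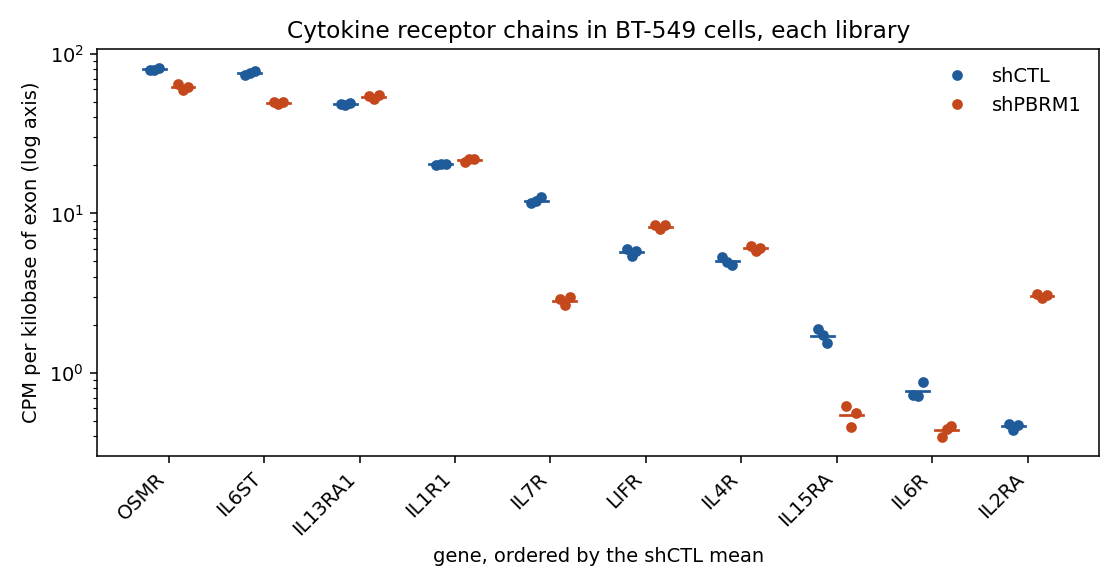
Level of each of the 10 receptor chains in CPM per kilobase of exon (log axis), ordered by the shCTL mean, with points for the 3 shCTL and 3 shPBRM1 libraries and short lines for group means. The groups do not overlap for any chain, and the widest gaps are those of IL2RA (0.464 in shCTL and 3.05 in shPBRM1), IL7R (12 and 2.83) and IL15RA (1.71 and 0.545).

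IL7R, which binds IL-7 and, with another partner, TSLP, was the chain with the largest decrease. It had 2623, 3503 and 3851 counts in shCTL and 1050, 624 and 1146 in shPBRM1. The levels were 72.9 ± 3.13 and 17.2 ± 1.01 CPM, a log2 fold change of -2.08 ± 0.06, with 23.6% of the control level left and no overlap. It passed from percentile 77.7 of the tested genes, per kilobase of exon, to percentile 47.0. IL7R lies on the plus strand of chromosome 5 (chr5:35852695-35879603), and its RefSeq promoter, chr5:35856641-35856940 on the plus strand, is shown as the counterpart of the IL2RA window. The RefSeq transcription start lies 4196 bases from the outermost GENCODE start. The capitals mark matches to TATAAA, at position -60 on the other strand and at -29 on the gene's own strand.
IL7R: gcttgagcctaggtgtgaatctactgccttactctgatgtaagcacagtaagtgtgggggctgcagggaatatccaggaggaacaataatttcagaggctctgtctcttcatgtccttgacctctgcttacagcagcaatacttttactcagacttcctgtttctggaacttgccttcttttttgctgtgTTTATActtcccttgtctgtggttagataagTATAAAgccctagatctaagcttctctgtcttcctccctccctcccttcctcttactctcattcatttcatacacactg
The window is 44.3% G and C and holds no CpG, against the median of 26. Also below that median were LIFR, with 2 CpG, IL2RA, with 4, IL1R1, with 7, and OSMR, with 23. Above it were IL15RA and IL6R, with 27 each, IL13RA1, with 35, IL6ST, with 36, and IL4R, with 42. The RefSeq starts of LIFR and IL1R1 lie 12949 and 40060 bases from the outermost GENCODE starts. Whether CpG content is linked to the differences was not tested. TATAAA was present in 12% of the 27305 promoters and in 5.88% of those of the 11173 tested genes.

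IL4R, the signalling chain for IL-4 and IL-13, was slightly higher after silencing. Its levels were 31.5, 29 and 28.0 CPM in shCTL and 37.0, 34.5 and 35.9 CPM in shPBRM1, without overlap, and its log2 fold change was 0.28 ± 0.06. IL13RA1, its partner in the type II receptor, stood at 212, 210.4 and 216 CPM against 239, 229 and 241 CPM, a log2 fold change of 0.15 ± 0.03. IL13RA2, which binds IL-13 and is regarded as a decoy, rose by 0.49 ± 0.09 (652, 711 and 817 counts against 1319, 831 and 1548, adjusted p = 3.04e-06, edgeR). The 3 chains of this receptor system thus lay on the same side of the control, at less than 1.5-fold each. IL4R is followed on chromosome 16 by IL21R, a gamma-chain family member 37.4 kb away with no tested gene between, a pair picked after the values were seen. IL21R fell (151, 216 and 223 counts against 91, 66 and 83, log2 fold change -1.53 ± 0.12, adjusted p = 4.19e-09, edgeR).

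The gp130 chains did not move together. IL6ST, the shared signalling chain, was at 684, 701 and 724 CPM in shCTL and 461, 451 and 465 CPM in shPBRM1, a log2 fold change of -0.62 ± 0.03. IL6R, which binds IL-6, was at 4.98 ± 0.60 and 2.81 ± 0.23 CPM (175, 223 and 286 counts against 153, 112 and 191), a log2 fold change of -0.83 ± 0.12. Both components of the IL-6 receptor were thus lower in each silenced library.

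OSMR, the oncostatin M chain, was at 567, 571 and 586 CPM in shCTL and 467, 429 and 446 CPM in shPBRM1, a log2 fold change of -0.36 ± 0.04. LIFR, which pairs with gp130 for LIF and also for oncostatin M, was higher instead, with 2651, 3139 and 3466 counts against 5992, 3686 and 6374 (68.1 ± 3.27 and 98.2 ± 3.0 CPM), a log2 fold change of 0.53 ± 0.05. Per kilobase of exon, OSMR was 13.2, 14.6 and 14.1 times as abundant as LIFR in shCTL and 7.74, 7.49 and 7.38 times in shPBRM1. LIFR and OSMR lie 237.5 kb apart on chromosome 5 on opposite strands (chr5:38474963-38608354 and chr5:38845858-38945596). LIFR overlaps its antisense gene LIFR-AS1 and OSMR overlaps RICTOR, which lies on the opposite strand. LIFR-AS1 had at most 25 counts, against at least 2651 for LIFR. RICTOR had 3947, 4889 and 5318 counts in shCTL and 4723, 3012 and 5087 in shPBRM1, against at least 16699 for OSMR, and whether the counting separated the strands was not given in the sources used here.

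IL1R1, the signalling receptor for IL-1, was the chain nearest to its control level. It was at 143, 145 and 145 CPM in shCTL and 149, 156 and 156 CPM in shPBRM1, a log2 fold change of 0.09 ± 0.02. IL1RAP, the accessory chain that IL1R1 requires, rose by 0.52 ± 0.01 (9283, 11910 and 12610 counts against 21192, 13796 and 23058, adjusted p = 2.18e-11, edgeR). The decoy IL1R2 was rare (21, 13 and 16 counts against 36, 31 and 32, log2 fold change 0.73 ± 0.35, adjusted p = 0.084, edgeR, not past the test).

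The 10 chains were ordered by CPM per kilobase of exon, which compares transcripts among these chains only. In shCTL the order was OSMR (80.1), IL6ST (75.7), IL13RA1 (48.7), IL1R1 (20.4), IL7R (12), LIFR (5.74), IL4R (5.01), IL15RA (1.71), IL6R (0.772) and IL2RA (0.464), with the ranges of all neighbours apart. In shPBRM1 OSMR (62.4) stayed first, IL13RA1 (54.1) came before IL6ST (49.4), and IL1R1 (21.7), LIFR (8.28) and IL4R (6.08) followed. IL2RA (3.05) had rank 7, with a range that overlapped that of IL7R (2.83), and IL15RA (0.545) and IL6R (0.435) came last with overlapping ranges. IL2RA thus left the last place, and IL7R went from rank 5 to rank 8. The summed level of the 10 chains was 247, 249 and 255 CPM per kilobase in shCTL and 212, 203 and 211 in shPBRM1.

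Receptor chains outside the 10 were read from a list of 46 genes, of which 42 had counts listed and 29 could be tested. Among the 29, 9 rose, 12 fell and 8 did not pass the test, against 31.5% of all tested genes that rose and 33.2% that fell. Past a 2-fold change, 8 of the 29 were lower (27.6%, against 9.68% of all tested genes) and 0 were higher by edgeR, where 1 had an unadjusted p under 0.05 and DESeq2 also called 0. That gene was EBI3, a soluble receptor-like subunit (4, 14 and 4 counts against 11, 20 and 26, log2 fold change 1.14 ± 0.60, adjusted p = 0.063, edgeR), and it was called with the replicate number as a block. IL12RB2 passed the test without overlap but stayed just short of 2-fold (26, 23 and 46 counts against 64, 49 and 107, 0.95 ± 0.32, adjusted p = 0.00393, edgeR). Leaving out shCTL replicate 1, 2 or 3 gave 1 called higher, and leaving out shPBRM1 replicate 1 gave 2. The chains called in these fits are not named here and need not be EBI3. The median log2 fold change of the 29 was 0.05, with changes in both directions.

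The 8 called lower came from several families. The largest decrease was in IL22RA1, the IL-22 binding chain, with 83, 132 and 122 counts in shCTL and 6, 6 and 12 in shPBRM1 (log2 fold change -4.04 ± 0.22, adjusted p = 1.55e-11, edgeR). IL20RB, which partners chains for IL-20 and IL-24, was at 24.9 ± 0.63 and 8.12 ± 0.75 CPM (-1.62 ± 0.08, adjusted p = 5.61e-15, edgeR). IL12RB1, the shared chain for IL-12 and IL-23, fell from 23, 36 and 22 counts to 8, 6 and 3 (-2.47 ± 0.42, adjusted p = 7.25e-05, edgeR). Besides IL2RB and IL21R, the others were IL17RE (-2.11 ± 0.22), the gp130-family chain CNTFR (-2.04 ± 0.39) and the IL-18 receptor chain IL18R1 (-1.65 ± 0.33), with adjusted p-values of 1.18e-08, 9.9e-05 and 4.95e-06 by edgeR. IL18R1 lies on chromosome 2, 131.7 kb from IL1R1 with no tested gene between them, a pair also picked after the values were seen.

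**Figure D3:**
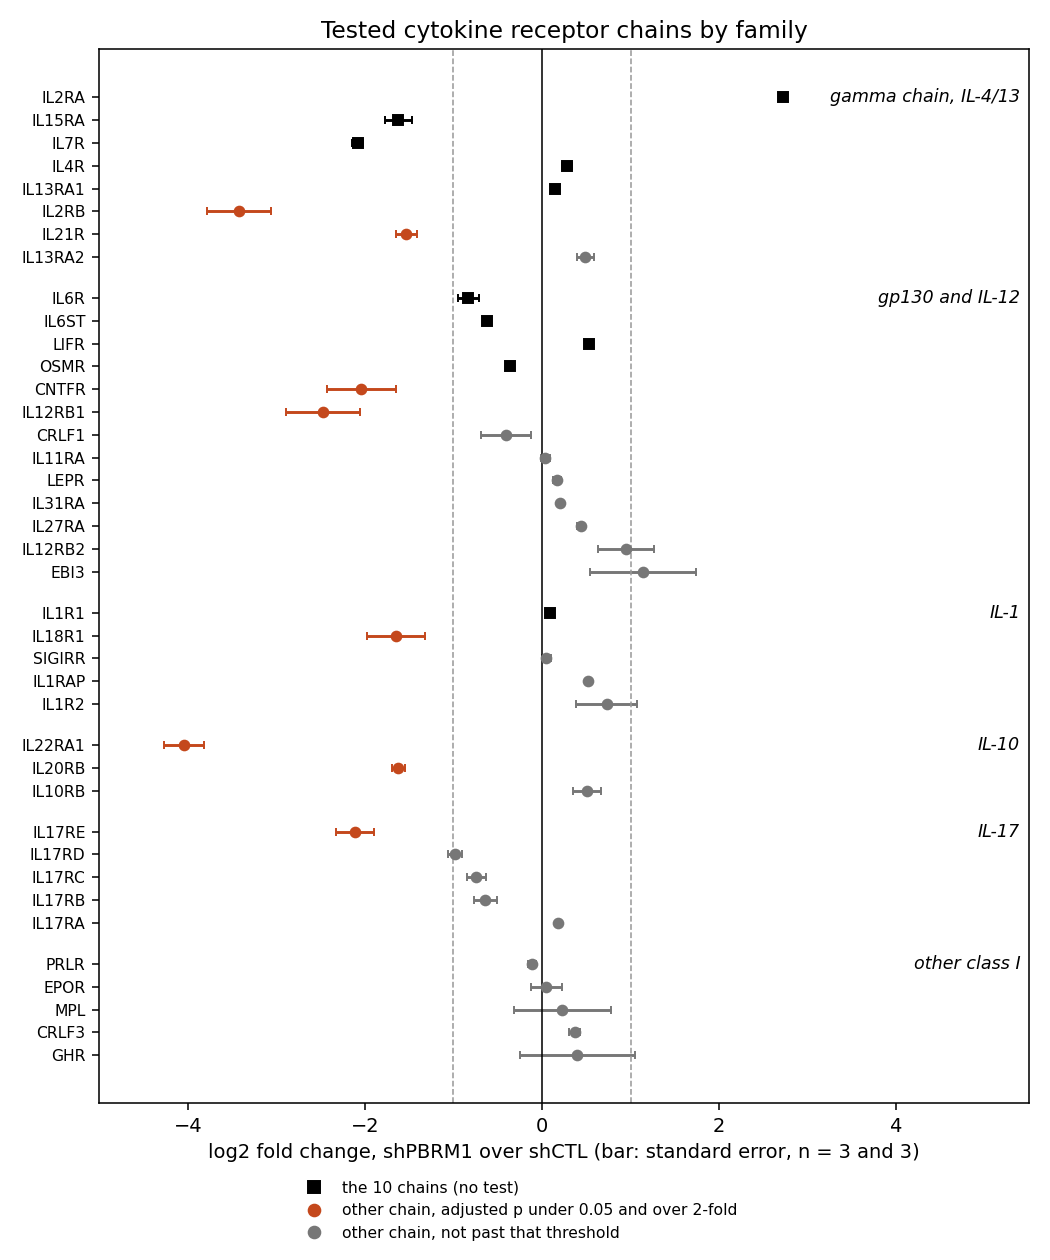
Log2 fold change of shPBRM1 over shCTL with its standard error (n = 3 and 3) for the 10 chains (black squares, no test) and the 29 further tested receptor chains, ordered by family. Orange points are the 8 chains called lower, from IL22RA1 (-4.04) to IL21R (-1.53); IL2RA at 2.72 is the only square to the right of the 2-fold line.

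The interferon receptors are class II relatives of these chains. IFNAR1 (0.43 ± 0.05, adjusted p = 3.4e-09), IFNAR2 (0.69 ± 0.15, adjusted p = 0.000176) and IFNGR2 (0.38 ± 0.08, adjusted p = 1.24e-05) rose by edgeR's test, and IFNGR1 did not pass (-0.02 ± 0.01, adjusted p = 0.532). Of all tested genes 31.5% rose. Of these 4 chains 0 were called past 2-fold by edgeR, 0 by an unadjusted p under 0.05 and 0 by DESeq2, against 12.6% of all tested genes.

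Of 17 genes for ligands of the 10 receptors, 9 could be tested, of which 6 fell, 2 rose and 1, CTF1, did not pass (log2 fold change -0.07 ± 0.17, adjusted p = 0.752, edgeR), against 33.2% of all tested genes that fell and 31.5% that rose. IL2, IL13 and IL1RN had no count in any library. Past a 2-fold change 3 of the 9 were lower (33.3%, against 9.68% of all tested genes), and 0 were higher by edgeR, by an unadjusted p under 0.05 or by DESeq2. Without shPBRM1 replicate 1, 1 ligand was called higher.

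IL6 had the largest decrease, with 5273, 7047 and 7298 counts in shCTL and 531, 364 and 598 in shPBRM1. Its levels were 144 ± 2.06 and 9.19 ± 0.30 CPM, a log2 fold change of -3.97 ± 0.03 (adjusted p = 3.61e-27, edgeR), and its receptor chains IL6R and IL6ST were lower as well. TSLP (67, 120 and 130 counts against 14, 14 and 10, -3.26 ± 0.34, adjusted p = 7.54e-10, edgeR) and IL7 (153, 240 and 272 counts against 78, 50 and 100, -1.79 ± 0.15, adjusted p = 4.55e-10, edgeR) are the ligands of IL7R, so that receptor and ligands had the same sign. IL15, presented by IL15RA, fell by 1.0 ± 0.06 (641, 789 and 833 counts against 463, 338 and 550, adjusted p = 8.42e-11, edgeR) and stood at the 2-fold limit, which it passed without shCTL replicate 2 (-1.02) or 3 (-1.0) and without shPBRM1 replicate 2 (-1.02) or 3 (-1.03), and with scaling by library size only (-1.05).

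The remaining gp130 ligands moved less. LIF, the ligand of LIFR, fell by 0.29 ± 0.03 (77.5 ± 2.25 to 63.3 ± 1.72 CPM, adjusted p = 3.18e-07, edgeR), while LIFR itself was higher. CLCF1 fell by 0.40 ± 0.11 (adjusted p = 0.00147) and CNTF rose by 0.64 ± 0.15 (adjusted p = 0.0124), both by edgeR. OSM, the ligand of OSMR, had at most 4 counts in a library. IL1B rose by 0.79 ± 0.13 (22, 23 and 29 counts against 51, 41 and 60, adjusted p = 0.0155, edgeR), and IL1A, with 2, 3 and 4 counts against 8, 9 and 15, was too low to be tested.

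**Figure D4:**
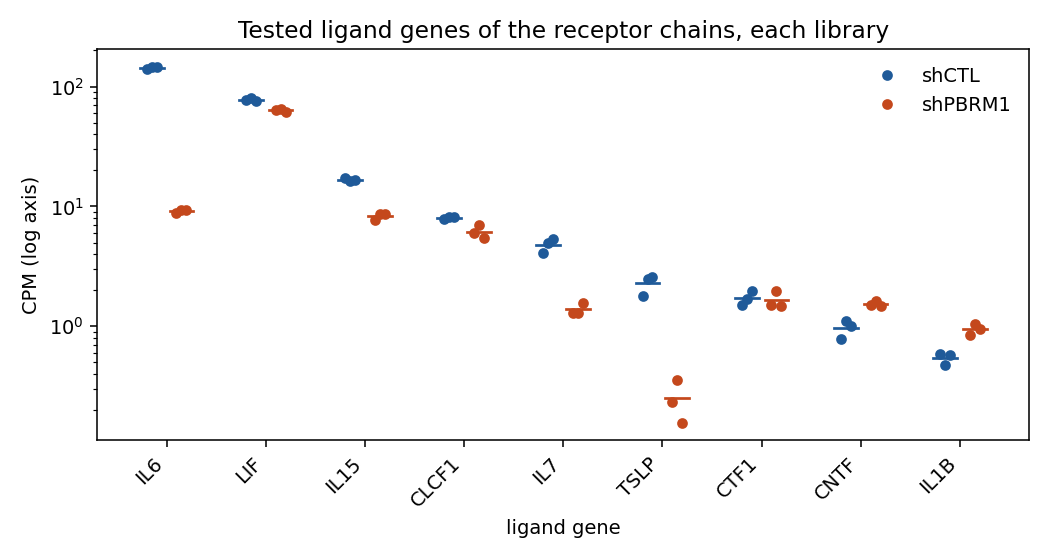
Level in CPM (log axis) of the tested ligands of the 10 receptors in each of the 3 shCTL and 3 shPBRM1 libraries (points), with short lines for group means. IL6 drops from 144 to 9.19 CPM, TSLP and IL7 are lower in each silenced library, and IL1B and CNTF are higher.

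Downstream of the receptors, several JAK and STAT genes were lower after silencing. Of 11 such genes 10 were tested, of which 8 fell, 1 rose and 1 did not pass, against 33.2% of all tested genes that fell and 31.5% that rose. Past 2-fold 4 of the 10 were lower by edgeR (40.0%, against 9.68% of all tested genes) and 3 by DESeq2. STAT2 was at 130.2 ± 4.44 and 25.4 ± 1.11 CPM (-2.36 ± 0.05, adjusted p = 5.63e-23, edgeR). STAT5A, a main transducer of IL-2 signals with its close relative STAT5B, had 26, 27 and 16 counts against 16, 4 and 22, with overlapping groups (-1.02 ± 0.53, adjusted p = 0.0413, edgeR). Its call was lost with DESeq2 (-1.08), without shCTL replicate 1 (-0.79) or 2 (-0.97) and without shPBRM1 replicate 1 (-1.07) or 2 (-0.74). STAT5B rose by 0.17 ± 0.05 (1274, 1528 and 1705 counts against 2269, 1487 and 2302, adjusted p = 0.00592, edgeR). STAT3, the main transducer of gp130 signals, did not pass (-0.07 ± 0.03, adjusted p = 0.127, edgeR). STAT6, which serves IL4R, fell by 0.66 ± 0.03 (adjusted p = 3.37e-12), and the kinases JAK2 (-0.55 ± 0.05, adjusted p = 7.22e-11) and JAK1 (-0.29 ± 0.04, adjusted p = 1.24e-06) fell less, all by edgeR.

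Genes that JAK-STAT signals are known to switch on included some that rose and some that fell. Of 13 tested, 3 rose, 5 fell and 5 did not pass, with a median log2 fold change of -0.08. The share past the test, 61.5%, was near the 64.7% of all tested genes. CISH, a typical STAT5 target, had 31, 32 and 18 counts against 30, 27 and 39 (-0.02 ± 0.36, adjusted p = 0.963, edgeR), and SOCS3, induced through gp130 and STAT3, was at 43.6 ± 0.61 and 45 ± 3.59 CPM (0.04 ± 0.07, adjusted p = 0.483, edgeR). Past 2-fold 1 of the 13 was called (7.69%, against 12.6% of all tested genes). It was CCND2, on the higher side (16, 28 and 26 counts against 110, 62 and 112, 1.76 ± 0.13, adjusted p = 7.49e-07, edgeR). BCL3 (-0.74 ± 0.09, adjusted p = 9.81e-11) and MCL1 (-0.44 ± 0.03, adjusted p = 1.73e-09) were among those that fell, PIM2 (0.69 ± 0.07, adjusted p = 6.87e-10) among those that rose, all by edgeR.

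The 5 tested genes nearest to IL2RA on each side, IL15RA left aside, had log2 fold changes between -0.43 (ASB13) and 0.67 (NRBF2P5), all within 2-fold. NRBF2P5 had only 3 to 26 counts a library, with overlapping groups, and did not pass (SE 0.51, adjusted p = 0.206, edgeR). KIN, ATP5F1C and TAF3 are distant neighbours, with starts 1740.3, 1777.4 and 1807.8 kb from that of IL2RA. FBH1, the nearest on the side of IL15RA, fell by 0.40 ± 0.04 (2087, 2702 and 2811 counts against 2677, 1639 and 2558, adjusted p = 5.59e-08, edgeR), and RBM17, the nearest on the other side, did not pass (-0.05 ± 0.05, adjusted p = 0.335, edgeR). ATP5F1C (0.62 ± 0.06, adjusted p = 5.15e-12) and GDI2 (0.35 ± 0.02, adjusted p = 2.64e-08) rose, by edgeR, and remained under 2-fold.

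Together with the genes beside LIFR, OSMR and IL7R on chromosome 5, 32 neighbours were tested, of which 9 rose, 13 fell and 10 did not pass. The share past the test, 68.8%, was near the 64.7% of all tested genes. Past 2-fold were 6 of the 32 (18.8%, against 12.6% of all tested genes). SKP2, near IL7R, rose by 1.16 ± 0.04 (44.5 ± 2.19 to 99.3 ± 1.51 CPM, adjusted p = 2.16e-17, edgeR). FYB1, an adaptor of T cell receptor signalling near OSMR, fell by 2.39 ± 0.13 (164, 219 and 205 counts against 58, 28 and 48, adjusted p = 1.5e-11, edgeR), SPEF2 fell by 1.18 ± 0.19 (adjusted p = 5.59e-08, edgeR) and UGT3A2 fell by 2.35 ± 0.35 (16, 16 and 12 counts against 2, 4 and 4, adjusted p = 0.00103, edgeR). The calls of LIFR-AS1 (-1.24 ± 0.41, adjusted p = 0.0149, edgeR) and LINC02104 (1.14 ± 0.58, adjusted p = 0.0438, edgeR) rested on at most 30 counts a library. LIFR-AS1 was no longer called with DESeq2 (-1.28), without shCTL replicate 3 (-1.16) or without shPBRM1 replicate 2 (-0.97). LINC02104 was no longer called with DESeq2 (1.13), without shCTL replicate 2 (0.75) or 3 (1.0) or without shPBRM1 replicate 1 (1.01) or 2 (1.0), and it reached 1.82 without shCTL replicate 1.

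**Figure D5:**
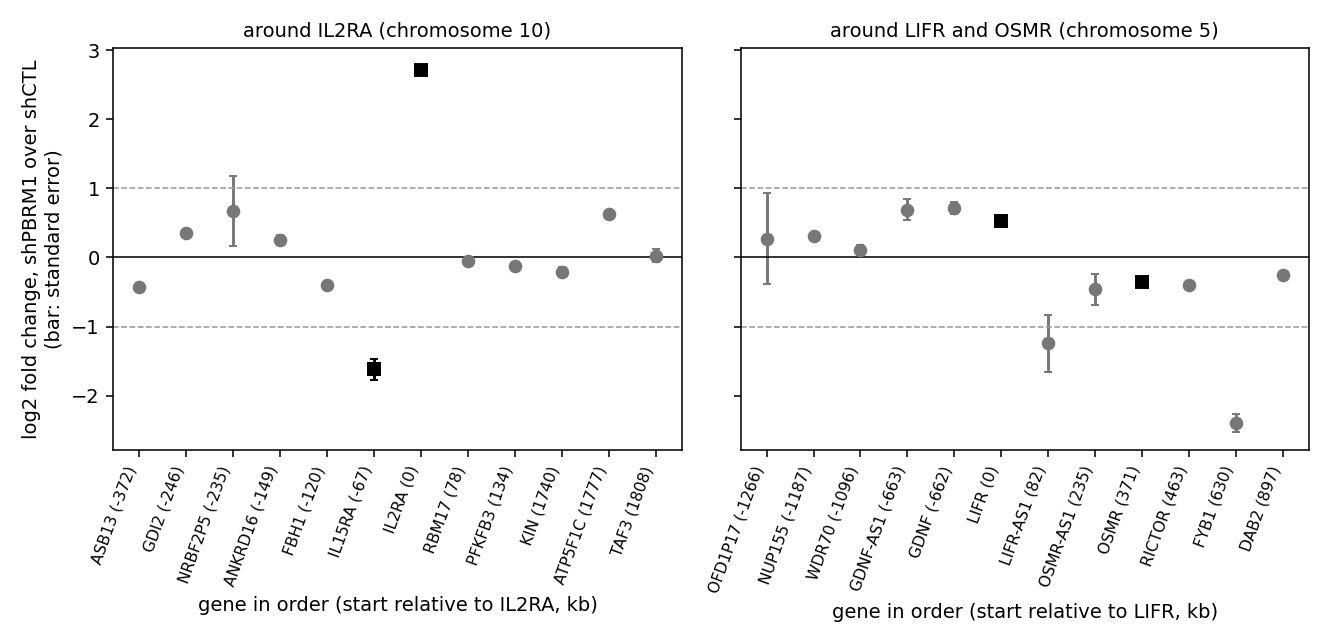
Log2 fold change of shPBRM1 over shCTL (y axis) with its standard error (n = 3 and 3) for the tested genes beside IL2RA (left) and for the 5 on each side of LIFR with OSMR among them (right), in order along the chromosome with each start in kb from that of IL2RA or LIFR. Squares are chains of the 10, circles are neighbours and dashed lines mark a 2-fold change. Apart from IL15RA, the neighbours of IL2RA (2.72) lie within 2-fold, and on the right FYB1 (-2.39) and LIFR-AS1 (-1.24) lie below the lower line.

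The genes whose profile over the 6 libraries lay nearest to that of IL2RA were sought among 11541 tested genes whose mean reached 100 counts. They were TNFRSF10D, a decoy receptor for TRAIL, at a Euclidean distance of 0.328 on the centred log2 scale, SORT1 (0.342), NEGR1 (0.568), NTSR1, a neurotensin receptor (0.612), and PAK6 (0.739). TNFRSF10D had 70, 74 and 110 counts in shCTL and 739, 411 and 769 in shPBRM1 (log2 fold change 2.65 ± 0.16). SORT1, the sorting receptor sortilin, was at 20.7 ± 1.12 and 117 ± 2.59 CPM (2.50 ± 0.05). The likeness was measured on the values that chose IL2RA and is a description.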

How the data were processed

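RNA-seq of 3 shCTL and 3 shPBRM1 libraries was used. The authors deposited unnormalized counts (whole reads for each symbol) in 1 table. The submitters' processing notes name CASAVA 1.8.2, STAR 2.7.9a, featureCounts, DESeq2 1.24.0 and GRCh38.p7, without roles; the annotation and the strand setting were not given in the sources used here. Groups and replicate numbers came from the sample titles; the control columns are not headed as controls and were matched by the cell line name, the absence of shPBRM1 and the last number. Rows with no count (12608) were not tested; 14 rows carry dates as names and were kept under the same filter, but not named.

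Genes were tested in R 4.3.3 with edgeR 4.0.16 (TMM, filterByExpr, quasi-likelihood F-test, Benjamini-Hochberg over 15450 genes). "Rose" and "fell" mean an adjusted p under 0.05; "called" also requires a fold change over 2. Fold changes are those of edgeR, whereas standard errors come from log2 CPM with a prior count of 2. That prior shrinks differences at low counts, so there the standard error can be too small for the fold change it follows. For IL2RB the mean log2 ratio on that scale was -2.92, against -3.42 by edgeR. Positions and exon lengths are those of GENCODE v29, matched by symbol for 98.6% of tested genes; promoters are from RefSeq, and all 10 chains matched. Libraries of a group differed by a chi-square per degree of freedom of 4.66 to 22.6. The library standing apart was shPBRM1 replicate 1, at 19.5 against replicate 2 and 22.6 against replicate 3. Replicates 2 and 3 of shPBRM1 gave 6.69, and the shCTL pairs gave 4.66 to 6.86. Deviations of same-numbered libraries correlated across 5622 genes (r = 0.734, 0.593 and 0.419), all over 0.1, although shCTL 2 with shPBRM1 3 (0.464) exceeded the last of these. The numbers of the titles were taken to pair the libraries only for the log2 ratios within a replicate number and for the replicate block. All p-values and standard errors given here treat the groups as unpaired. Alternatives were DESeq2 1.42.0, RLE factors, library size only, no count filter, the replicate block, each library left out and another gene length.

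The 10 chains and every list were chosen with earlier results of these data known. Named genes are the 10 chains, up to 8 called genes per list, set partner chains and ligands, PBRM1, the 5 profiles nearest to IL2RA and its nearest neighbours; others were chosen after their values were seen. Some results are not reported here.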

Additional observations from a re-analysis of the deposited data

How the results depend on the processing

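The log2 fold change of IL2RA was between 2.67 and 2.75 over all alternatives, and no chain, list count or named gene reversed. Counts over all genes stayed between 441 and 493 higher and between 1485 and 1604 lower when each library was left out in turn. They were 383 higher and 1584 lower with library size only, and 525 higher and 1707 lower with no count filter. DESeq2 gave 428 higher and 1570 lower, and RLE factors gave 452 and 1491. The replicate block moved the other receptor chains called higher from 0 to 1 (EBI3) and changed no other call in the lists or among the named genes; over all tested genes it gave 457 called higher and 1498 called lower, against 443 and 1496 without it. DESeq2 gave 0 and library size only gave 0 lymphoid and myeloid markers called higher, and DESeq2 gave 1 neighbouring gene called higher. Leaving out each library in turn gave 0 to 2 other receptor chains, 0 to 1 ligands, 0 to 1 lymphoid and myeloid markers and 1 to 2 neighbouring genes called higher, and 1 to 2 lymphoid and myeloid markers and 2 to 4 cell line markers called lower; the 4 came without shPBRM1 replicate 1. With the length of the longest coding transcript, IL4R ranked 6 and LIFR ranked 7 in shCTL, and the mean ratio of IL2RA to IL15RA was 0.174 in shCTL and 3.59 in shPBRM1, against 0.274 and 5.66 (an alternative chosen after seeing the data). With library size only, IL13RA1 (0.10), IL6ST (-0.67), OSMR (-0.41) and IL1R1 (0.04) moved by more than their spread. Of the named genes, 339 values kept their side of the limits, 5 (IL15) crossed to called and 19 (STAT5A, CD14, LIFR-AS1 and LINC02104) lost the call. In the lists, genes under about 30 counts a library limit what depth can show; the causes were not tested.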
